A study of Rattus norvegicus with 20 samples.

Results

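The genes described here are those of BMP and TGF-beta signalling in laser-captured cortical neurons of aged rats after stroke: the ligands of the Bmp, Gdf, Inhb and Tgfb families, the antagonists Nog, Chrd and Fst, the activin, BMP and TGF-beta receptors, the Smad transducers and the Id factors, with a few proteins named for TGF-beta. They were chosen by gene name on the array, with earlier results of these data known, and each name is represented by its brightest probe. This gave 44 genes, carried by 58 probes, of 36459 features in all, where a feature is a gene name or a probe with no name. Of the 44 genes 36 had a signal above background in enough animals to be tested, among 30428 features that did. Acvr1, Bmp3, Bmp15, Gdf11, Gdf15, Smad3, Smad9 and Tgfbr2 did not, and their values are descriptions only. The names Id4, Acvr2a and Acvr2b had no probe, but RefSeq accessions placed 7 further genes of these families under other array names, and Acvr2a, Acvr2b, Bmper, Bmpr1b, Gdf6, Id4 and Smad7 were tested and are counted apart from the 44.

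Sprouting neurons at day 21, sprouting neurons at day 7, non-sprouting neurons at day 21 and non-sprouting neurons at day 7 were the groups, each with 5 animals. All 10 rats were 2 years old and had a stroke, and the days are separate cohorts; strain and sex were not given in the sources used here. In every rat CTb-Alexa 488 was placed in peri-infarct cortex, and CTb-Alexa 647 was placed at the same site after the survival period that names the day, 21 or 7 days. Neurons whose axons reach such a site only after the earlier injection carry the later tracer alone, which is the principle of the method. About 300 neurons of each type were captured per animal 7 days after the later tracer, and their RNA was amplified in 2 rounds, so each value is that of a small pool and not of single cells. Sprouting and non-sprouting RNA of an animal shared each array, with sprouting neurons in Cy5 on the forward array and in Cy3 on the dye-swap array. Values below are log2 ratios of sprouting over non-sprouting neurons, 1 per animal from both arrays, in replicate order 1 to 5 unless stated otherwise.

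BMPs, GDFs, activins and TGF-betas are secreted dimers that bring together type I and type II receptor kinases on the receiving cell. TGF-betas and activins signal mainly through Smad2 and Smad3, and BMPs through Smad1, Smad5 and Smad9, each with the shared partner Smad4, while Smad6 and Smad7 are induced inhibitors that close the loop. The Id genes are classical BMP targets whose products bind basic helix-loop-helix factors and keep them off DNA. In the nervous system the BMP branch is known for steering neural precursors towards astrocytes, and Smad1 for a part in axon growth of adult sensory neurons in rodents.

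Signal quality differed between arrays. The share of gene spots well above background was 69.8 to 95.5% in the red channel and 20.8 to 95.2% in the green channel, lowest on the dye-swap array of day 21 replicate 4, where 4088 spots were also marked as outliers. Across genes, the forward and the turned dye-swap ratios of an animal correlated at 0.061 in that animal and at 0.34 to 0.89 in the other animals. There 4 of the 44 members were well above background on both sprouting arrays, against 15 to 41 in the other animals. As a check of the captured cell type, all 9 markers of glutamatergic neurons found on the array were measured, Camk2a well above background on 8 and 10 of 10 sprouting arrays at day 21 and day 7 and on 10 and 9 of 10 non-sprouting arrays. Slc17a7 was above background on 4 and 9 of 10 sprouting arrays and on 9 and 9 of 10 non-sprouting arrays. All 12 astrocyte, 12 microglial and macrophage and 10 oligodendrocyte lineage markers, all 9 interneuron markers and 11 of 12 endothelial and mural markers were measured too. Detection alone therefore does not identify the captured cell type. In bulk pools such as these, fewer cells of a type and less RNA per cell cannot be told apart.

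Promoter stretches of 3 genes to which the results return are shown because they differ in the short motifs that Smads are known to bind. The windows are the bases before the transcription start in the RefSeq table of the GRCr8 assembly, 5′ to 3′ on the gene's strand, and capitals mark GGCGCC, a palindrome bound by BMP-activated Smads, and CAGAC, the Smad box, searched on both strands as CAGAC or GTCTG.
Gdf10, chr16:9243262-9243433, plus strand: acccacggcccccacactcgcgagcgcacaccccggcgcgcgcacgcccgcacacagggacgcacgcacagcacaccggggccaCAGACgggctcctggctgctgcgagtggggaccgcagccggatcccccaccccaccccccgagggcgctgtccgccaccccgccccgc
Smad7, chr18:71263258-71263507, plus strand: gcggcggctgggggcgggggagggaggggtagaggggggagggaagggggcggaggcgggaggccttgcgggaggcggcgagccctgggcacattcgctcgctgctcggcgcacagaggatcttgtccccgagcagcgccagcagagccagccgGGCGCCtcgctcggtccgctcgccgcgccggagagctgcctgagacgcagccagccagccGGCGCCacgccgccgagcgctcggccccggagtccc
Id4, chr17:16598294-16598543, minus strand: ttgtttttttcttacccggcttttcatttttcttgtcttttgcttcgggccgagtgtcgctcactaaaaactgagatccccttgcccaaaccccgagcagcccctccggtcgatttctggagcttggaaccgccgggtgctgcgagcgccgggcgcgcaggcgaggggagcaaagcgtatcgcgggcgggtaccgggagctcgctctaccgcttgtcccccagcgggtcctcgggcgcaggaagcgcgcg
The Smad7 stretch held 2 copies of GGCGCC and the Gdf10 stretch 1 copy of CAGAC, and the Id4 stretch held neither. A further 78 bases nearer the Gdf10 start are covered by an annotated transcript and are not printed, and they held 1 copy of GGCGCC. Of 33469 promoters in the table, 8.69% held GGCGCC within 250 bases and 42.9% held CAGAC. The table had promoters for 42 of the 51 genes looked up, 15 with GGCGCC and 10 with CAGAC in any promoter of the gene. The shares above are of single promoters, so these counts of genes are not like for like with them. These matches describe the letters only.

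The first question was whether, in the day 7 cohort, pathway genes had another level in sprouting than in non-sprouting neurons. No member did after adjustment over all features in limma, and neither did any of the 30427 features tested (0%), with 1856 features (6.10%) at an unadjusted p under 0.05. At that unadjusted level Gdf10 and Bmp4 were higher in sprouting neurons, 2 of 36 members against 3.37% of all features, and Gdf9 and Smad2 were lower, 2 of 36 against 2.73%. The members centred near 0, with 21 above and 15 below and a median of 0.014, beside a median of -0.0026 over all features tested.

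Gdf10, a TGF-beta superfamily ligand also called BMP3b, had ratios of 0.20, 0.84, 0.43, 0.57 and -0.15 in the 5 day 7 animals. It was higher in sprouting neurons in 4 of 5 animals, with a mean of 0.38 ± 0.38 (SD, n = 5; SE of the fit 0.13; adjusted p = 0.787 in limma). Forward and dye-swap arrays gave 0.36 and 0.40. The signal was well above background on 10 of 10 arrays in both cell types. The unadjusted p under 0.05 was lost without replicate 2, the highest animal, at 0.26, without replicate 4, at 0.33, and with median centring in place of loess, at 0.28. Gdf10 was later followed up as a sprouting signal after stroke on the basis of sprouting transcriptome data, so its direction here is not independent evidence.

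Bmp4, a BMP ligand, had ratios of 0.27, -0.0063, 0.26, 0.045 and 0.22 at day 7, near 0 in 2 animals and above 0.2 in the other 3. The mean was 0.16 ± 0.13 (SD, n = 5; adjusted p = 0.724 in limma), on a dim probe that was above background on 6 of 10 sprouting and 6 of 10 non-sprouting arrays. The scanner software's own ratios gave 0.50 for it.

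Gdf9, best known as an oocyte ligand, had -0.22, -0.044, -0.38, -0.10 and -0.051, below 0 in all 5 animals (mean -0.16 ± 0.14 SD; adjusted p = 0.77 in limma). The scanner software's ratios gave -0.52, and its unadjusted p under 0.05 was lost with median centring, at -0.099, on forward arrays alone, at -0.12, and without replicate 3, at -0.11. Smad2, the transducer of TGF-beta and activin signals, had -0.17, -0.14, -0.091, -0.073 and -0.11, a narrow range below 0 (mean -0.12 ± 0.039 SD; adjusted p = 0.794 in limma). Its dye orientations did not match: the dye-swap arrays averaged -0.23 and the forward arrays -0.00040. The scanner software's ratios gave -0.34. The unadjusted p under 0.05 was lost in 6 of 22 alternatives: on forward arrays alone, without replicate 1 or 2, with median centring, with arrays entered singly and with the authors' deposited table, at -0.095. Bmpr1b, a type I BMP receptor listed under an accession, was below 0 in all 5 animals as well, at -0.16 to -0.040 (mean -0.10 ± 0.052 SD; adjusted p = 0.805 in limma), and kept an unadjusted p under 0.05 in 13 of 23 alternatives. Among those that ended it were median centring, at -0.020, dye-swap arrays alone, at -0.071, and leaving out any 1 of day 7 replicates 1, 3, 4 and 5 or day 21 replicate 1, at -0.11 to -0.086.

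Below 0 in all 5 day 7 animals were 2 of 36 members, Gdf9 and Smad2, against 5.52% of all features. Above 0 in all 5 was 1 of 36, the inhibitory Smad6 at 0.031 to 0.093, against 4.86%. With 5 animals an exact two-sided sign-flip test cannot go below p = 0.0625.

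**Figure D1:**
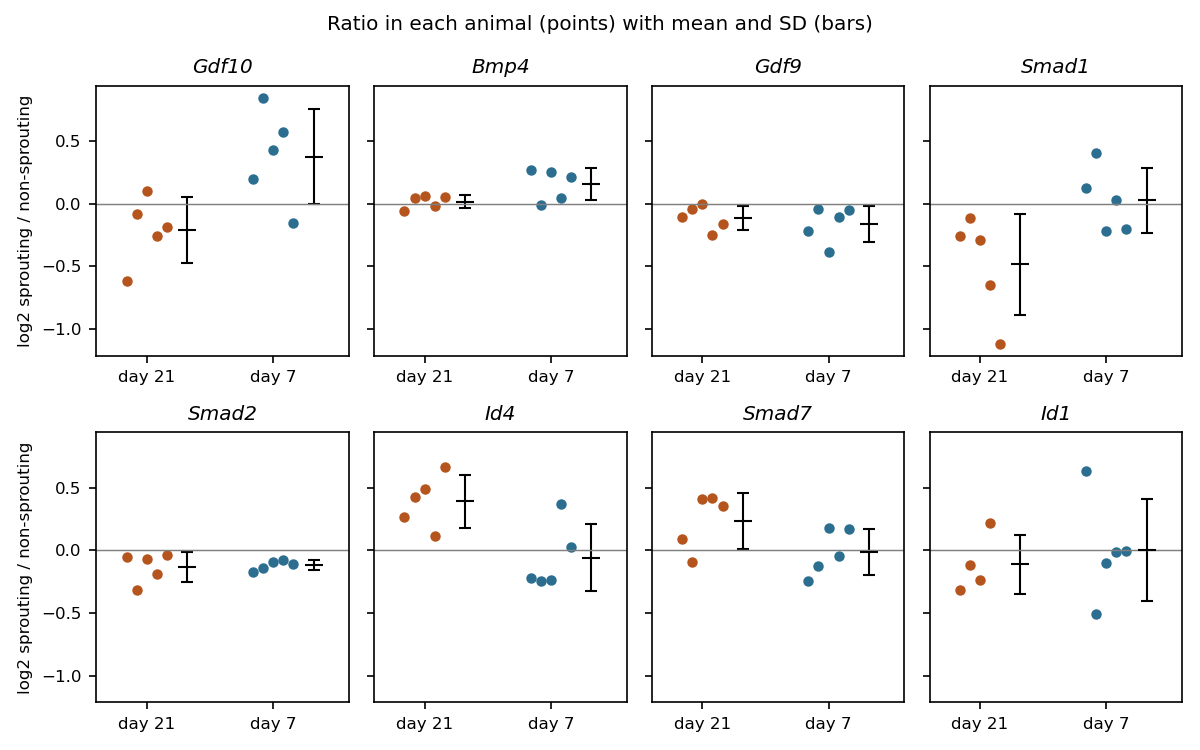
Log2 ratio of sprouting over non-sprouting neurons (y axis) in each animal (points) at day 21 (orange, left) and day 7 (blue, right), with mean and SD as bars, for 8 genes. Gdf10 lies above 0 in 4 of 5 day 7 animals and below 0 in 4 of 5 day 21 animals, Id4 lies above 0 in all 5 day 21 animals, and Smad2 and Gdf9 lie below 0 in all 10 animals.

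The second question was the same comparison at day 21. Again 0 of 30428 features passed the adjusted threshold in limma, and 1443 (4.74%) had an unadjusted p under 0.05. Among members Smad1 and Smad2 were lower in sprouting neurons at the unadjusted level, 2 of 36 against 2.86% of all features, and 0 were higher, against 1.88%. Of the 7 family genes under other array names, Id4 and Smad7 were higher at that level. Members were split evenly about 0, 18 above and 18 below, with a median of -0.0026 beside -0.00039 over all features.

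Smad1, the transducer of BMP signals, had ratios of -0.25, -0.11, -0.29, -0.65 and -1.12 at day 21. All 5 animals were below 0 and replicates 4 and 5 were lowest, replicate 4 being the animal with the dimmest array. The mean was -0.48 ± 0.41 (SD, n = 5; SE of the fit 0.14; adjusted p = 0.922 in limma), with -0.52 on forward arrays and -0.45 on dye-swap arrays. Without replicate 5 it was -0.33, still at an unadjusted p under 0.05 as under all 23 alternatives tried. Some of these, such as leaving out a day 7 animal, cannot move the day 21 mean. A dimmer Smad1 probe, which did not pass the background filter, was at -0.085 to 0.13 in the same animals.

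Id4, the Id family member listed as Idb4 on the array, had ratios of 0.27, 0.43, 0.49, 0.11 and 0.67 at day 21, above 0 in every animal. The mean was 0.39 ± 0.21 (SD, n = 5; SE of the fit 0.098; adjusted p = 0.922 in limma), and both dye orientations gave 0.39. The other Id4 probe had 0.33, 0.35, 0.12, -0.057 and 0.48. It was above 0 in 4 of 5 animals. With median centring in place of loess the mean of the brighter probe was 0.16, no longer at an unadjusted p under 0.05.

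Smad7, the induced inhibitor listed as Madh7, had ratios of 0.087, -0.091, 0.41, 0.42 and 0.35 at day 21, clearly above 0 in 3 animals and near 0 in 2 (mean 0.24 ± 0.23 SD, n = 5; adjusted p = 0.922 in limma). Forward arrays gave 0.14, without an unadjusted p under 0.05, and dye-swap arrays 0.33. The scanner software's ratios gave 0.21, also without it. With median centring it was 0.0067, and without replicate 3, 4 or 5 it was 0.19, 0.19 and 0.21, none at an unadjusted p under 0.05. Smad2 had -0.054, -0.32, -0.066, -0.19 and -0.040 (mean -0.13 ± 0.12 SD; adjusted p = 0.922 in limma). Its dye-swap arrays averaged -0.32 and its forward arrays 0.050, the opposite sign, and with median centring the mean was 0.023. Without background subtraction it was -0.053 and with the scanner software's ratios -0.26, and neither these nor arrays entered singly gave an unadjusted p under 0.05. Without replicate 2 it was -0.087.

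Below 0 in all 5 day 21 animals were 3 of 36 members, Gdf9, Smad1 and Smad2, against 3.20% of all features, and above 0 in all 5 were 0 of 36, against 2.48%.

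**Figure D2:**
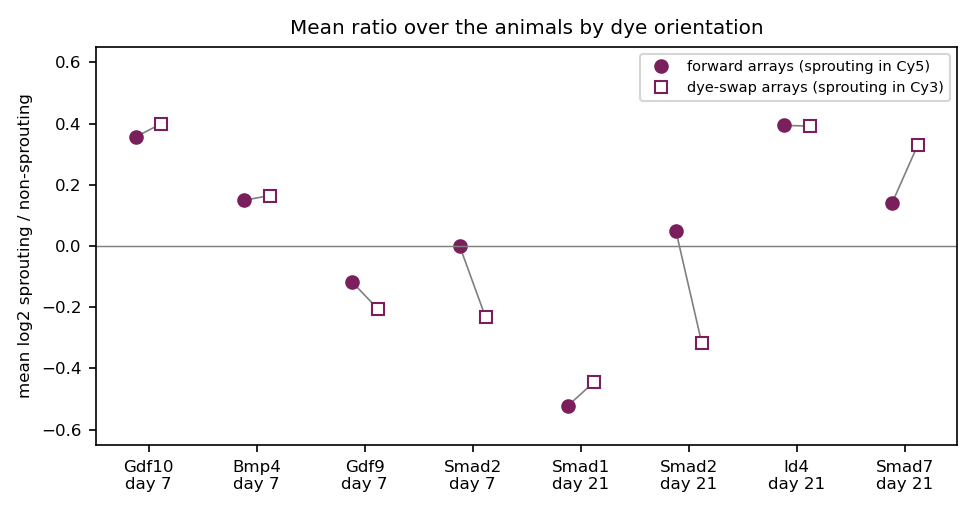
Mean log2 ratio of sprouting over non-sprouting neurons (y axis) on the forward arrays (filled circles) and the dye-swap arrays (open squares) for 8 gene and day pairs with an unadjusted p under 0.05. The orientations are close for Gdf10, Bmp4, Smad1 and Id4 and lie apart for Smad2, at -0.32 on dye-swap and 0.050 on forward arrays at day 21, and for Smad7, at 0.33 and 0.14.

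Markers of other cells and of the captured neurons were measured beside these ratios. Of the 12 astrocyte markers 11 had a mean above 0 at day 21, with a median of 0.064, where 4 of 12 were above 0 at day 7. The median over that list in the day 21 animals was 0.099, 0.058, 0.076, 0.23 and -0.017, and replicate 5, the highest for Id4, was the lowest of them. The mean log2 level of the astrocyte list was 9.54 to 9.88 in sprouting neurons and 9.46 to 9.72 in non-sprouting neurons at day 21. The astrocyte connexin gene Gja1 had 0.25, 0.12, 0.053, 0.23 and 0.35 (mean 0.20; adjusted p = 0.922 in limma). Beside Smad1, 9 of 11 endothelial and mural markers were below 0 at day 21, with a list median of -0.053, -0.17, -0.16, -0.33 and 0.024 in the animals, and replicate 5, the lowest for Smad1, was the highest of them. That list's mean log2 level was 7.11 to 8.24 in sprouting neurons and 7.36 to 8.42 in non-sprouting neurons. Of the 9 glutamatergic neuron markers, 6 were below 0 at day 21, with a median of -0.091, and 5 at day 7, with a median of -0.027. The list median in the day 21 animals was -0.051, -0.16, 0.028, -0.11 and -0.36, lowest in replicate 5. None of these markers was below background on every array of a group, and their part in the Id4 and Smad1 ratios was not tested.

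The third question was whether the ratio differed between the cohorts. No feature passed the adjusted threshold (0 of 30427) in limma, with 1244 (4.09%) at an unadjusted p under 0.05. At the unadjusted level Gdf10 and Smad1 had a lower ratio at day 21, 2 of 36 members against 2.35% of all features, and 0 had a higher one, against 1.74%. Id4, outside the 44, had a higher one. In 24 of 36 members the ratio was lower at day 21, against 15339 of 30427 features. The median difference was -0.038, beside -0.0011 over all features.

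Gdf10 had ratios of -0.62, -0.083, 0.10, -0.26 and -0.18 at day 21, against the day 7 values above. The day 21 mean was -0.21 ± 0.27, against 0.38 ± 0.38 at day 7 (SD, n = 5 each). The difference was -0.59 (SE 0.19; adjusted p = 0.922 in limma), and exchanging the day labels among the 10 animals in an exact two-sided permutation test gave p = 0.0238, unadjusted, where 252 splits allow no less than 0.00794. The days overlapped, since day 7 replicate 5 at -0.15 lay below day 21 replicates 2 and 3. All 23 alternatives kept the sign, from -0.83 to -0.47, though the replicate block and arrays entered singly cannot move this difference. Within the 1 scan day that held both cohorts, day 7 replicates 4 and 5 and day 21 replicate 1, the difference was -0.83.

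Id4 had day 7 ratios of -0.22, -0.25, -0.23, 0.37 and 0.029, so that day 21 exceeded day 7 by 0.45 (SE 0.14; adjusted p = 0.922 in limma; exact permutation p = 0.0317, unadjusted). Day 7 replicate 4 overlapped the day 21 range. Within the shared scan day, which holds 1 day 21 animal at 0.27 and day 7 replicates 4 and 5 at 0.37 and 0.029, the difference was 0.065. Smad1 had day 7 ratios of 0.13, 0.41, -0.22, 0.028 and -0.20, scattered about 0. Day 21 was lower by a difference of -0.51 (SE 0.19; adjusted p = 0.922 in limma; exact permutation p = 0.0397, unadjusted). Without day 7 replicate 2 it was -0.42 and without day 21 replicate 4 it was -0.47, neither at an unadjusted p under 0.05. Within the shared scan day the Smad1 difference was -0.17. Each remaining scan day held 1 cohort only.

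For 0 of 36 members did the days separate completely, against 0.289% of all features with every day 21 animal above and 0.506% with every day 21 animal below. Among the 8 untested members Smad9, a BMP transducer, had 0.046, 0.14, 0.094, 0.13 and 0.092 at day 21, against -0.10, 0.026, -0.024, -0.0053 and -0.10 at day 7. Those ranges did not overlap, but its probe was above background on only 3 of 10 and 1 of 10 sprouting arrays and 5 of 10 and 3 of 10 non-sprouting arrays at day 21 and day 7.

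Averaged over both days, 1 of 30427 features passed the adjusted threshold in limma (0.00329%), and it was no member. An unadjusted p under 0.05 was found for 1974 features (6.49%). At an unadjusted p under 0.05 Bmp4 was higher, 1 of 36 against 3.31% of all features, at 0.087, and 3 of 36 were lower, against 3.18%. These were Gdf9 at -0.14 (adjusted p = 0.713 in limma), Smad1 at -0.23 (adjusted p = 0.762) and Smad2 at -0.13 (adjusted p = 0.628). Outside the 44, Id4 was higher at 0.17 (adjusted p = 0.759), and was at -0.037 with median centring. It kept an unadjusted p under 0.05 in 14 of 23 alternatives and lost it, among others, with the replicate block and without any 1 of day 7 replicates 4 and 5 and day 21 replicates 2, 3 and 5, at 0.11 to 0.16. Gdf9 and Smad2 were below 0 in all 10 animals, 2 of 36 against 0.240% of all features, and 0 of 36 were above 0 in all 10, against 0.177%. The Gdf9 probe was dim, with mean sprouting levels of 6.52 and 6.59 at day 21 and day 7. It was above background on 5 of 10 and 8 of 10 sprouting arrays, and the Smad2 probe on 7 of 10 and 8 of 10. Gdf9 had -0.11, -0.039, -0.0034, -0.25 and -0.16 at day 21. Its dye-swap arrays averaged -0.28 and its forward arrays 0.058 at day 21, so the same dye dependence was measured as for Smad2. On forward arrays alone the mean over both days was 0.025 for Smad2 and -0.029 for Gdf9, and with median centring it was -0.043 and -0.035, none at an unadjusted p under 0.05. Smad1 kept that p in 14 of 23 alternatives and Bmp4 in 14 of 22. Without background subtraction, with the scanner software's ratios or, for Smad1, in the authors' deposited table it was lost, and for Bmp4 also on forward arrays alone, at 0.053, and with arrays entered singly. Bmp4 was at 0.049 without background subtraction and at 0.20 with the scanner software's ratios. Smad1 also lost it without any 1 of day 7 replicates 1, 3, 4 and 5 and day 21 replicates 4 and 5, at -0.24 to -0.15, and Bmp4 without any 1 of day 7 replicates 1, 3 and 5 and day 21 replicate 3, at 0.073 to 0.081.

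Among ligands, Tgfb2 and Tgfb3 varied widely between animals and lay on both sides of 0. Tgfb2 had -0.29, 0.11, -0.0075, -0.29 and 0.60 at day 21, against 0.32, -0.92, -0.32, -0.026 and -0.064 at day 7. Tgfb3 ratios were -0.10, -0.15, -0.19, -0.84 and 0.015 at day 21, against 0.55, -0.36, -0.35, 0.020 and -0.091 at day 7. Tgfb1, which had a dimmer probe, stayed between -0.052 and 0.13 at day 21 and between -0.018 and 0.21 in the 4 day 7 animals with a value. Bmp2 was 0.074 to -0.052 in day 21 replicates 1 to 3 and -0.61 and -0.27 in replicates 4 and 5, against -0.12 to 0.077 at day 7. Day 21 replicate 4 is the animal with the dimmest array. Bmp7 was within -0.10 and 0.089 over both days, with no value in day 21 replicate 4. The mean ratios of the 16 tested ligands spanned -0.25 to 0.046 at day 21 and -0.20 to 0.38 at day 7.

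The extracellular antagonists, which hold BMPs or activins away from receptors, varied from animal to animal. Nog (noggin) had -0.13, -0.12, 0.33, 0.23 and -0.40 at day 21, against -0.022, 0.45, 0.35, -0.11 and 0.16 at day 7 (means -0.016 ± 0.29 and 0.17 ± 0.24, SD). Fst (follistatin), which binds activins, had -0.076, 0.20, 0.45, 0.24 and -0.68 at day 21, against 0.28, 0.38, 0.11, -0.048 and -0.20 at day 7. Chrd (chordin) stayed within -0.22 and 0.13. None of the 3 had an unadjusted p under 0.05 at either day.

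Of the receptors, Bmpr1a, a type I BMP receptor, had 0.064, 0.12, -0.036, 0.29 and 0.59 at day 21, against 0.13, -0.54, 0.35, -0.16 and -0.15 at day 7. The day 21 mean was 0.21 ± 0.24 and the day 7 mean -0.073 ± 0.33 (SD, n = 5 each), and the spread within each day was about as large as the difference. Bambi, a pseudoreceptor that dampens TGF-beta and BMP signals, had 0.64, 0.13, 0.82, 0.033 and -0.26 at day 7 and -0.32 to 0.21 at day 21. Acvr1b, Tgfbr1 and Tgfbr3 lay within -0.13 and 0.23 in all 10 animals on their brightest probes. Another Tgfbr1 probe that passed the filter was at -0.64 to 0.23 at day 21 (mean -0.22) and at -0.13 to 0.55 in the 4 day 7 animals with a value. Of the type II activin receptors under other array names, Acvr2a had -0.63 in day 21 replicate 4, the animal with the dimmest array. It had -0.17 to 0.22 in the other 9 animals, and Acvr2b lay between -0.23 and 0.31. On the brightest probes the 5 tested receptors among the members had day 21 means of 0.0072 to 0.21.

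The remaining Smads lay near 0 or differed in sign among animals. Smad4, the common partner, had -0.21, -0.079, -0.17, -0.94 and 0.28 at day 21, against 0.10, -0.42, 0.23, 0.16 and -0.11 at day 7. The -0.94 was from replicate 4, the animal with the dimmest array. At day 21 Smad4 averaged -0.028 on forward arrays and -0.42 on dye-swap arrays. Smad5, a BMP transducer, lay between -0.084 and 0.12 on a probe above background on 1 of 10 and 7 of 10 sprouting arrays at day 21 and day 7. Smad3 was above background on 3 of 10 and 2 of 10 such arrays and was not tested.

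Among the Id members, Id1 had -0.31, -0.11, -0.24 and 0.22 in day 21 replicates 1, 2, 3 and 5, with no value in replicate 4, and 0.64, -0.50, -0.10, -0.012 and -0.0015 at day 7. Its means were -0.11 ± 0.24 (SD, n = 4) at day 21 and 0.0033 ± 0.41 (SD, n = 5) at day 7. Id2 had -0.25, 0.082, 0.16, -0.12 and 0.69 at day 21, against 0.14, 0.11, -0.11, -0.11 and -0.32 at day 7, with animals on both sides of 0. On this probe, as for Id4, the highest value was in day 21 replicate 5. Other Id2 probes that passed the filter were at 0.19 and 0.017 in that animal, the latter with its highest day 21 value, 0.27, in replicate 3. The brightest Id3 probe had values in only 4 animals, 0.079 and -0.10 at day 21, against 0.38 and -0.19 at day 7, because outlier spots were dropped. Another Id3 probe had 0.021, -0.016, 0.11, 0.067 and -0.016 at day 21, against 0.90, -0.25, 0.051, -0.0037 and 0.035 at day 7. Whether Id4 differed from the other Id genes was not tested.

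**Figure D3:**
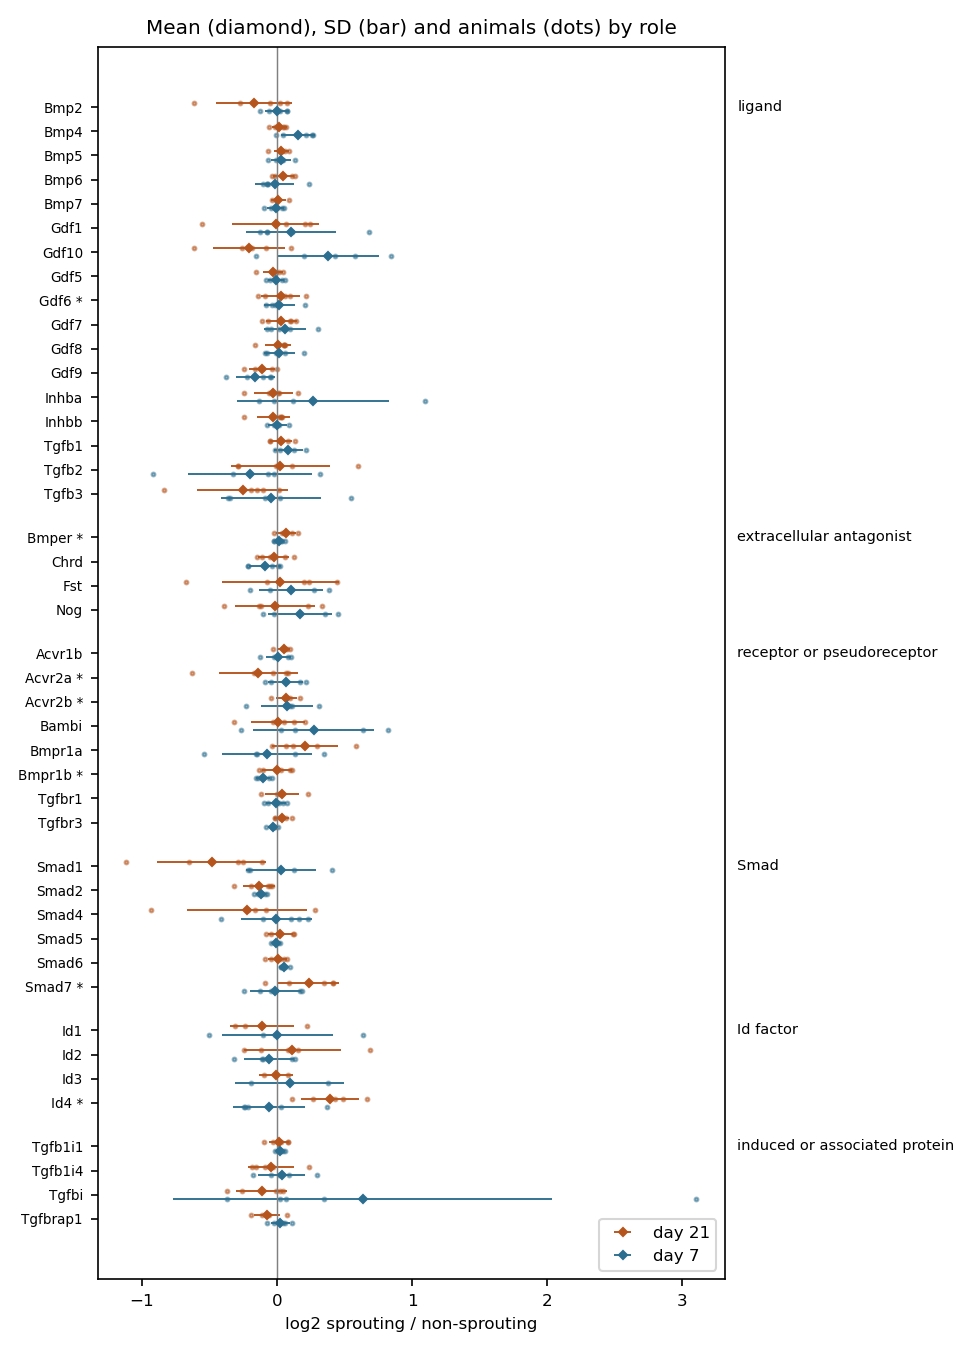
Log2 ratio of sprouting over non-sprouting neurons (x axis) for the 36 tested members and 7 family genes under other array names (marked with an asterisk), grouped by role, at day 21 (orange, upper of each pair) and day 7 (blue, lower). Diamonds are means, bars SD and dots animals; most means lie close to 0, and the day 7 value of Tgfbi carries 1 animal at 3.10.

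One day 7 animal stood apart for several members. Tgfbi, a secreted matrix protein induced by TGF-beta, had 3.10 in replicate 1 and -0.37, 0.35, 0.023 and 0.069 in replicates 2 to 5. A dimmer Tgfbi probe that did not pass the filter was at 0.036 to 0.10 in the 5 animals, 0.084 in replicate 1. Inhba, the activin A subunit, had 1.10 in replicate 1 and -0.024, 0.12 and -0.13 in the other 3 animals with a value. Id1 at 0.64, Tgfb3 at 0.55 and Bmp6 at 0.24 were also highest in that animal, and both further Id3 probes too, at 1.09 and 0.90. The macrophage lysozyme gene Lyz2 was at 4.21 there, against -0.20 to 1.36 in the other 4 animals, Cd68 at 1.45 and Tyrobp at 1.30. Over all 12 microglial and macrophage markers the median in replicate 1 was 0.064, within the range of the other animals, -0.20 to 0.19. The median over the 11 tested endothelial and mural markers was 0.29 in replicate 1, against -0.11 to 0.012 in the other animals, with the endothelial gene Vwf at 0.44. Over the day 7 animals the mean log2 level of the microglial and macrophage list was 8.82 to 10.88 in sprouting and 8.74 to 10.42 in non-sprouting neurons. For the endothelial and mural list it was 8.01 to 8.46 and 8.05 to 8.23. The part of either list in the Tgfbi and Inhba values was not tested. The 6 members and 4 markers plotted for this animal were chosen after their values were seen.

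**Figure D4:**
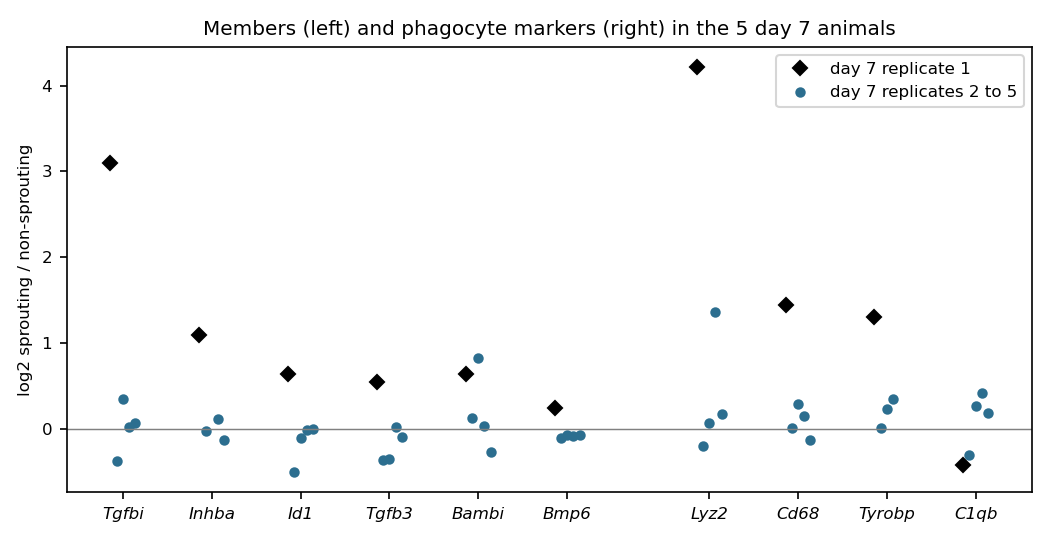
Log2 ratio of sprouting over non-sprouting neurons (y axis) in the 5 day 7 animals for 6 members (left) and 4 phagocyte markers (right), with replicate 1 as black diamonds and replicates 2 to 5 as blue circles. Replicate 1 is at 3.10 for Tgfbi and 4.21 for Lyz2, but at -0.42 for C1qb.

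Further comparisons set the level of each gene at day 21 against day 7 within 1 cell type, from single-channel intensities. Here too 0 of 30427 features passed the adjusted threshold in either cell type in limma, although 4776 in sprouting (15.7%) and 4883 in non-sprouting neurons (16.0%) had an unadjusted p under 0.05. In sprouting neurons 0 of 36 members were higher at day 21 at that level, against 4.35% of all features, and 3 of 36 were lower, against 11.3%. In non-sprouting neurons 2 of 36 were higher, against 4.65%, and 2 of 36 lower, against 11.4%. Without day 21 replicate 1, 296 features in sprouting and 590 in non-sprouting neurons passed the adjusted threshold, and Inhbb in non-sprouting neurons was the 1 member or family gene among them. Cohort and scan day coincided except on 1 day, so level differences between cohorts and between scan days cannot be told apart beyond that day.

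Inhbb, the activin B subunit, had log2 levels of 9.23, 8.39, 8.52, 8.15 and 7.61 in sprouting neurons at day 21, against 8.88, 9.22, 9.32 and 9.42 in day 7 replicates 1 to 4. In non-sprouting neurons it had 9.19, 8.36, 8.50, 8.12 and 7.85 at day 21, against 8.91, 9.13, 9.30 and 9.50 at day 7. In both cell types 4 of 5 day 21 animals lay below all day 7 animals with a value. The difference was -0.83 in sprouting neurons (SE 0.28; adjusted p = 0.233 in limma) and -0.81 in non-sprouting neurons (SE 0.25; adjusted p = 0.187 in limma), and the sprouting over non-sprouting ratio was -0.24 to 0.090 over both days. Without day 21 replicate 1 the non-sprouting difference had an adjusted p = 0.0411 in limma. With scan day as a block the differences were -0.20 and -0.31. The day 21 animal that lay apart, replicate 1, was scanned on the same day as day 7 replicates 4 and 5, of which replicate 5 has no Inhbb value.

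Some marker lists of other cells had medians below that of all features at day 21 relative to day 7. The interneuron and glutamatergic neuron lists lay above it. The interneuron medians were 0.079 and 0.27 in sprouting and non-sprouting neurons, with 8 of 9 markers above 0 in each. The glutamatergic neuron medians were -0.018 and 0.11, with 4 of 9 and 6 of 9 markers above 0. The oligodendrocyte lineage medians were -0.071 and -0.13. The median difference in sprouting and non-sprouting neurons was -0.72 and -0.57 over the microglial and macrophage markers, -0.35 and -0.24 over the endothelial and mural markers and -0.18 and -0.33 over the astrocyte markers, beside -0.069 and -0.068 over all features. Microglial and macrophage markers lower at an unadjusted p under 0.05 were 6 of 12 in sprouting and 2 of 12 in non-sprouting neurons. Endothelial and mural markers gave 4 of 11 and 2 of 11. Astrocyte markers gave 3 of 12 and 6 of 12, where 11.3% and 11.4% of all features were lower. The part of these marker lists in the level differences was not tested.

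Gdf6 and Gdf5, ligands of the BMP branch, were lower at day 21 in both cell types at the unadjusted level. Gdf5 had 7.43, 7.46, 7.37, 7.50 and 7.44 in sprouting neurons at day 21, against 7.60, 7.73, 7.63, 7.75 and 7.79 at day 7, a difference of -0.26 (SE 0.090; adjusted p = 0.234 in limma). In non-sprouting neurons the Gdf5 difference was -0.24 (adjusted p = 0.221 in limma). The forward arrays carried these differences: they gave -0.48 for sprouting and -0.42 for non-sprouting neurons, where the dye-swap arrays gave -0.047 and -0.063. Gdf6 was at 7.27 to 8.02 in sprouting neurons at day 21, against 7.54 to 8.47 at day 7, a difference of -0.56, and in non-sprouting neurons the difference was -0.57. With scan day as a block the differences in sprouting and non-sprouting neurons were -0.32 and -0.39 for Gdf6 and -0.34 and -0.33 for Gdf5, none at an unadjusted p under 0.05. The replicate block also ended that call for Gdf5 in both cell types and for Gdf6 in sprouting neurons, although replicate numbers do not pair the cohorts.

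Gdf10 levels in sprouting neurons were 7.78, 7.96, 7.94, 6.78 and 6.68 at day 21, against 7.68, 8.86, 8.37, 8.36 and 7.78 at day 7. The day 21 mean was lower by a difference of -0.78 (SE 0.32; adjusted p = 0.282 in limma), with replicates 4 and 5 lowest. In non-sprouting neurons Gdf10 was at 8.40, 8.04, 7.84, 7.04 and 6.86 at day 21, against 7.49, 8.02, 7.94, 7.78 and 7.94 at day 7, a difference of -0.20 (SE 0.28; adjusted p = 0.7 in limma). Replicates 4 and 5 were thus low in both cell types at day 21. With scan day as a block the differences were -0.29 in sprouting and 0.54 in non-sprouting neurons, and without any 1 of day 21 replicates 4 and 5 and day 7 replicates 2, 3 and 4 the sprouting difference, -0.75 to -0.60, had no unadjusted p under 0.05.

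Id4 levels in sprouting neurons were 10.88, 11.30, 10.98, 10.82 and 11.20 at day 21, against 10.21, 11.11, 10.48, 10.75 and 10.30 at day 7, a difference of 0.47 (SE 0.18; adjusted p = 0.27 in limma). With scan day as a block it was 0.35, and without any 1 of day 21 replicate 2 and day 7 replicates 1, 3 and 5 it was 0.37 to 0.44, none at an unadjusted p under 0.05. In non-sprouting neurons the day 21 and day 7 means were 10.64 ± 0.15 and 10.63 ± 0.44 (SD, n = 5 each). Smad1 averaged 7.82 ± 0.44 at day 21 and 8.13 ± 0.37 at day 7 in sprouting neurons, and 8.31 ± 0.27 at day 21 and 8.10 ± 0.49 at day 7 in non-sprouting neurons. Neither Smad1 difference had an unadjusted p under 0.05. Bmp4 was higher at day 21 in non-sprouting neurons by 0.33 and Tgfbrap1, a protein that binds TGF-beta receptors, by 0.28, with adjusted p = 0.277 and 0.274 in limma. With scan day as a block these were 0.10 and -0.097.

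**Figure D5:**
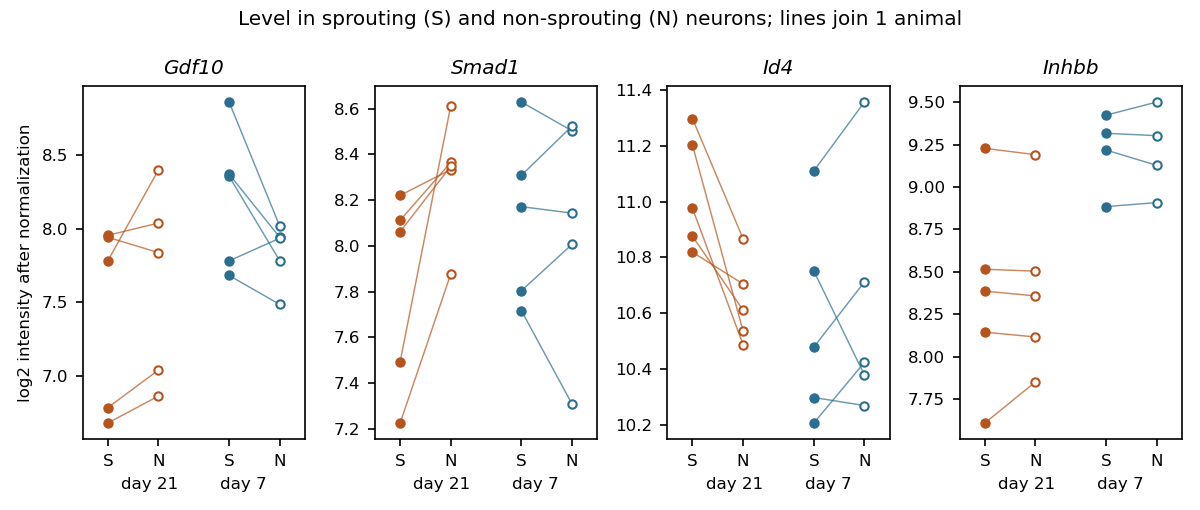
Normalized log2 single-channel intensity (y axis, separate scale per gene) in sprouting (S, filled) and non-sprouting (N, open) neurons at day 21 (orange, left) and day 7 (blue, right), with lines joining the cell types of 1 animal. Id4 is higher and Smad1 lower in S than in N in all 5 day 21 animals. Inhbb is close in both cell types, at ratios of -0.077 to 0.090, except in day 21 replicate 5, at -0.24. Its level is low at day 21 in all animals but replicate 1.

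Around the members, 86 further genes of the pathway had been listed, of which 74 were on the array and 66 tested. At an unadjusted p under 0.05 in limma, 1 was higher and 5 lower at day 21, against 1.88% and 2.86% of all features, and 0 were higher and 1 lower at day 7, against 3.37% and 2.73%. Their medians were -0.013 at day 21 and 0.019 at day 7, beside -0.00039 and -0.0026 over all features. Acvrl1, the endothelial type I receptor ALK1, was lower in sprouting neurons at both days, with -0.10, -0.42, -0.22, -0.17 and -0.12 at day 21 and -0.30, -0.25 and -0.17 in the 3 day 7 animals with a value. It was below 0 in all 8 animals measured (adjusted p = 0.922 at day 21 and 0.72 at day 7 in limma), beside 9 of 11 endothelial and mural markers below 0 at day 21 and 4 of 11 at day 7. The other 4 lower at day 21 were the ubiquitin ligases Smurf1 (-0.12) and Smurf2 (-0.30), the kinase Map3k7 or TAK1 (-0.11) and the latency protein Ltbp1 (-0.52, with -1.74 in replicate 2). Chrdl1, a BMP antagonist, was higher at 0.20 and above 0 in all 5 day 21 animals. Msx2, a BMP target, was at 0.056 over both days. The 15 tested targets otherwise had an unadjusted p of 0.05 or more in each ratio comparison. None of the 11 tested helix-loop-helix partners and relatives of the Id proteins had an unadjusted p under 0.05 in a ratio comparison, and 9 of 11 were below 0 at day 21.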

How the data were processed

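Each of 20 two-colour rat arrays compared sprouting with non-sprouting neurons of 1 animal, in a forward and a dye-swap array for each of 10 animals. Per the file headers, the arrays were scanned with Agilent Feature Extraction 9.1.3.1, and the deposited scanner files hold the mean intensity and local background of each spot in both channels and a log10 ratio of red over green that the software had background-subtracted and dye-normalized. The authors' deposited table of normalized values holds log2 values, whose scale was checked against the arrays: each of its 20 columns followed its own array's loess ratio (r 0.900 to 1.00 across spots, column medians 0.00338 to 0.0153). Its centring is not stated, and it served only as an alternative.

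From the intensities, background was corrected with normexp (offset 50) and ratios were normalized within arrays by loess in limma 3.58.1 under R 4.3.3, with control spots and outlier spots at weight 0. Outlier spots were then left out, the dye-swap ratio was turned, and both arrays were averaged to 1 ratio per animal, which was missing where either array lacked it. Testing required a signal well above background in 3 or more animals of 1 day, on the forward and the dye-swap array alike and in the channel of the same cell type. Each gene was represented by its brightest probe, and both days were fitted in 1 limma model with Benjamini-Hochberg adjustment over all features at 0.05. Single-channel log2 intensities, after loess and Aquantile normalization, gave the levels. Of 41012 probes, 10658 were named through RefSeq by accession, 4587 by symbol and 3877 by synonym, and 21890 had no RefSeq name.

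The precision is limited by 5 animals per day. The p-values measure the spread among these animals. The members and the lists of pathway genes and markers were chosen with earlier results of these data known. Values per animal are given for the Id genes, for members with an unadjusted p under 0.05 in any comparison and, as values or ranges, for core ligands, receptors, antagonists and Smads. Bmpr2 was not analysed here. Replicate numbers do not pair the cohorts, which are different animals (correlations of same-numbered deviations -0.19 to 0.034).

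Alternatives were the Feature Extraction ratios, the authors' table, no background subtraction, median centring, no or a stricter filter, saturated spots as missing, 1 dye orientation or channel, the mean of a gene's probes, arrays entered singly, the replicate block, scan day as a block, quantile normalization of channels, each day fitted alone and each animal left out. The fits were tested on simulated data first.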

Additional observations from a re-analysis of the deposited data

Results flagged for a closer look

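In 79 groups of 5 animals examined, 5 held 1 animal far from the other 4 by Dixon's criterion, where chance gives about 1 in 20 groups. Tgfbi, the TGF-beta-induced matrix protein, was at 3.10 in day 7 replicate 1, against -0.37 to 0.35 in the other animals. Bmp6 was at 0.24 in the same animal, against -0.11 to -0.068. At day 21, Tgfb3 was at -0.84 in replicate 4, the animal with the dimmest array, against -0.19 to 0.015. Inhbb was at -0.24 in day 21 replicate 5, against 0.011 to 0.037. Gdf8, the myostatin gene, was at -0.16 in day 21 replicate 3, against 0.049 to 0.056.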

How the results depend on the processing

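Of the 27 results for members and family genes with an unadjusted p under 0.05, 559 of 564 values under alternative processing kept their sign. Part of this count was fixed in advance. Leaving out an animal of the other day cannot move the mean of a day, and neither can arrays entered singly where no value is missing. The 5 that did not were Smad2 at day 21, at 0.023 with median centring and 0.050 on forward arrays alone, Smad2 over both days, at 0.025 on forward arrays alone, Id4 over both days, at -0.037 with median centring, and Tgfbrap1 in non-sprouting neurons, at -0.097 with scan day as a fixed block. The causes were not tested. The number of features past the adjusted threshold at day 7, 0 as reported, was 1 without background subtraction and 12 with arrays entered singly. At day 21 it was 1 with median centring and 1 with arrays entered singly, against 0, and for the difference between days it was 1 with arrays entered singly, against 0. Over both days, where 1 feature passed, 114 passed on dye-swap arrays alone, among them Acvr2b at 0.27, 11 with arrays entered singly, 0 each on forward arrays alone, with Feature Extraction ratios, with median centring and with the replicate block, and 0 to 3 with 1 animal left out (3 without day 21 replicate 5). For levels, leaving out 1 animal gave 0 to 296 features in sprouting and 0 to 590 in non-sprouting neurons, the highest without day 21 replicate 1, and 1 in non-sprouting neurons without day 21 replicate 5. With the replicate block the differences between days were -0.59 for Gdf10, -0.51 for Smad1 and 0.45 for Id4. Where every animal has a value this block cannot move the difference, and replicate numbers do not pair the cohorts. The Inhbb level differences, with a day 7 value missing, were -0.64 and -0.67 in sprouting and non-sprouting neurons, and the unadjusted p under 0.05 was lost. Dim signal limits Bmp4, Gdf9 and Smad5 as well as Smad3, Smad9 and the other untested genes. In day 21 replicate 4 the green channel was above background at 20.8% of spots on the dye-swap array.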
